A study of Mus musculus with 9 samples.

Results

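The genes described here handle iron in macrophages: the ferritin subunits Fth1 and Ftl1 (storage), Slc40a1 (export), Tfrc, Slc11a1 and Slc11a2 (uptake and transfer between compartments), Cd163 and Blvrb (heme recycling) and Ireb2 (the iron sensor). They were chosen by symbol, and all 9 were found among the 23413 genes of the count table. All 9 also passed the filter on low counts, which left 11393 genes. RNA-seq was performed on liver macrophages sorted as F4/80+CD11b+Gr1low and labelled as Kupffer cells (KCs), the resident macrophages of the liver. The mice were male C57BL/6 mice kept on their diet for 8 weeks from 5 weeks of age. The NC group was fed normal chow and had 2 libraries, with no treatment in the labels. In the other groups mice were fed a high-fat diet (HFD) and, as the study's methods describe it, were injected every 5 days from week 3 with either vehicle (PEG3000; 3 libraries) or 2 mg/kg diphenyleneiodonium (DPI), an agonist of the receptor GPR3, in that vehicle (4 libraries), for 6 doses. The sample labels instead describe purified cells treated with DMSO or 500 nM DPI for 24 h, and the data do not settle which account holds. Each library is labelled as 1 mouse. Diet and vehicle injection cannot be told apart in the comparison of vehicle-treated HFD-fed mice with NC mice.

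KCs take up aged red blood cells, break down their heme and either store the released iron or return it to plasma. Ferritin, a shell of heavy (Fth1) and light (Ftl1) chains, oxidizes and stores iron, and ferroportin (Slc40a1) is the known iron exporter of mammalian cells. When iron is scarce, the iron regulatory proteins (Aco1 and Ireb2) bind a hairpin in certain mRNAs, the iron-responsive element. Binding in the 5′ UTR blocks translation of ferritin and ferroportin, and binding in the 3′ UTR stabilizes the transferrin receptor mRNA (Tfrc). Much of the control of ferritin is therefore exerted on translation, which RNA counts do not measure.

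The elements of the members are shown because they lie in the 5′ UTR of some members and in the 3′ UTR of another, where binding has the different effects given above. The pattern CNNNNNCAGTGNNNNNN, in which the 5 bases before the loop pair with the 5 bases after it (G with T allowed), was searched on the transcript strand of GENCODE M21 transcripts (GRCm38, the assembly of mm10). It was present in the 5′ UTR of Fth1, Ftl1 and Slc40a1 and at 4 places in the 3′ UTR of Tfrc. Of all genes, 31 of 20916 with an annotated 5′ UTR (0.148%) and 129 of 21045 with an annotated 3′ UTR (0.613%) held the pattern. Each sequence is the DNA form of the transcript, 5′ to 3′, with the loop in capitals.
Fth1, 5′ UTR, chr19:9982733-9982759, plus strand: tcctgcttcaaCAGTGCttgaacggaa
Ftl1, 5′ UTR, chr7:45459780-45459806, minus strand: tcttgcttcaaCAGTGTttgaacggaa
Slc40a1, 5′ UTR, chr1:45925466-45925492, minus strand: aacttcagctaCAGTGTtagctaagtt
Tfrc, 3′ UTR, chr16:32631220-32631246, plus strand: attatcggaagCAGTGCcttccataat
Tfrc, 3′ UTR, chr16:32631599-32631625, plus strand: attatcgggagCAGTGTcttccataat
Tfrc, 3′ UTR, chr16:32631664-32631690, plus strand: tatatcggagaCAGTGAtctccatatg
Tfrc, 3′ UTR, chr16:32631711-32631737, plus strand: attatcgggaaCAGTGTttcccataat
The pattern was not found in the UTRs of the other members in this annotation. Slc11a2 is known to have an isoform with an element in its 3′ UTR.

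The libraries held 3534325 to 15585775 counts each (median 4918629), of which the ribosomal RNA precursor Rn45s took 27% to 44.5%. Values below are CPM, counts scaled to a common library total after TMM normalization. At these depths 3 counts, the smallest number taken to differ from none, equal 0.184 to 1.02 CPM, which covers counting error only. The NC libraries resembled each other less (Spearman's rho 0.859 across genes) than the vehicle (0.915 to 0.924) or DPI libraries (0.908 to 0.922), and several comparisons with NC changed when 1 of its 2 libraries was left out. General macrophage genes were present in every library (9 of 9 genes over 0, 15319 to 44503 CPM summed). Of 11 KC genes (230 to 962 CPM summed), 4 to 11 were over 0 in a library. Id3 (136 to 917 CPM) and Nr1h3 (4.91 to 39.0 CPM), which are not limited to KCs, were present throughout. The most specific KC genes were not: counts of Clec4f were 0 and 244 for NC, 42, 0 and 0 for vehicle, and 219, 6, 4 and 6 for DPI, while Marco had at most 1 count and Timd4 at most 28. The libraries are therefore called liver macrophages, since the most specific markers of KCs were absent from many of them. Because the RNA is bulk, fewer cells of a type and less RNA per cell cannot be told apart.

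Ferritin mRNA lay higher in every HFD library than in both NC libraries, and of the 4 comparisons of Fth1 and Ftl1 with NC only that of Fth1 with vehicle passed the threshold of the study. Fth1 had 2663 and 3433 CPM in NC. With vehicle it had 5504, 11939 and 6583 CPM, and with DPI 3935, 5110, 6222 and 7636 CPM. The vehicle and DPI libraries overlapped.
Fth1 was 2.63-fold higher with vehicle than in NC (log2 fold change 1.39 ± 0.36, SE; 95% interval of the fold 1.54 to 4.48). By edgeR's quasi-likelihood test it passed the threshold of the study, an unadjusted p under 0.05 with a fold change of at least 2, but its Benjamini-Hochberg adjusted p over all genes was 0.157. It was the only member called in this comparison (1 of 9), in which 11.7% of all tested genes were called, 7.03% higher and 4.63% lower, and 0.0614% passed the adjusted threshold. The highest value, in vehicle library 2, carried part of this: without it the log2 fold change was 0.99 (adjusted p = 0.273), under the threshold of size, and no member was called. With DPI, Fth1 was 1.88-fold higher than in NC (log2 fold change 0.91 ± 0.34, adjusted p = 0.388), under the fold threshold, and without DPI library 1 it was 1.05 and called. Between DPI and vehicle the log2 fold change of Fth1 was -0.48 ± 0.28 (adjusted p = 0.999; 95% interval -1.09 to 0.13), and it was -0.08 without vehicle library 2.

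The light chain did not pass in any comparison. Ftl1 had 3990 and 5465 CPM in NC, 6431, 11063 and 5937 CPM with vehicle and 7392, 6494, 7295 and 7282 CPM with DPI. All 7 HFD libraries again lay above both NC libraries, and the DPI libraries lay close together, with an SD of 418 CPM against 2828 CPM with vehicle. Ftl1 was 1.65-fold higher with vehicle (log2 fold change 0.72 ± 0.28, adjusted p = 0.323) and 1.51-fold higher with DPI (0.59 ± 0.27, adjusted p = 0.458) than in NC, neither past the fold threshold. DPI and vehicle differed by -0.13 ± 0.23 (adjusted p = 0.999; 95% interval -0.63 to 0.36). Both comparisons with NC share its 2 libraries. Ferritin transcripts made up 0.784% to 2.3% of all counts of a library. Processed copies of the ferritin genes exist in the mouse genome (GENCODE M21 names 2 for the heavy and 2 for the light chain), and reads could be divided between them and the parent genes.

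**Figure D1:**
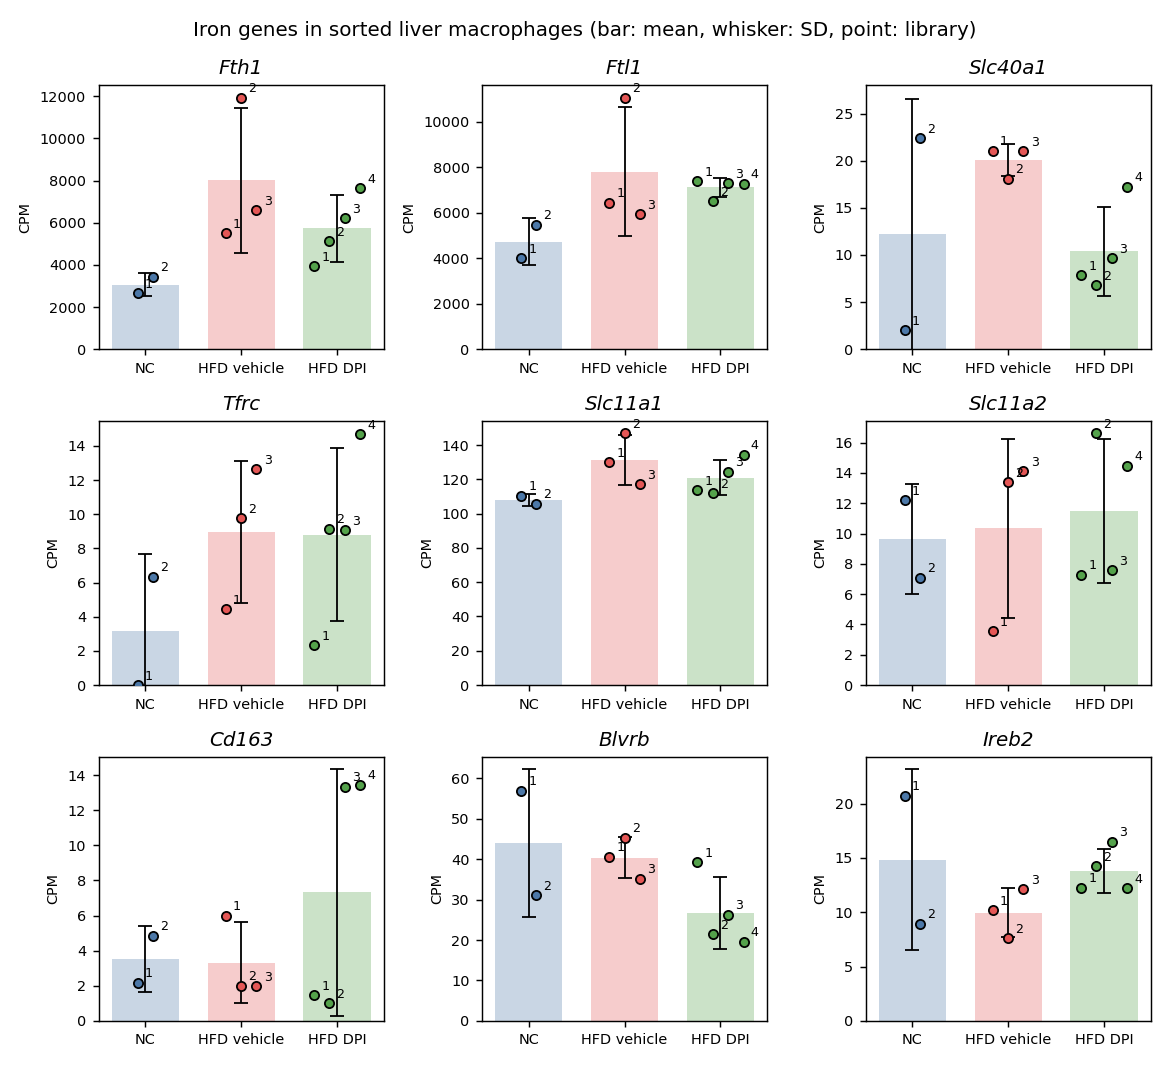
CPM of each member by library, 1 panel per gene, with points numbered by replicate and bars giving the group mean and SD (NC n = 2, vehicle n = 3, DPI n = 4; the panels have separate linear axes). Fth1 and Ftl1 lie above both NC libraries in all 7 HFD libraries, and Slc40a1 lies at 18.1 to 21.1 CPM with vehicle and at 6.78 to 17.2 CPM with DPI.

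The ratio of heavy to light chain transcripts was computed within each library, since it does not depend on scaling between libraries. Ferritin shells with more heavy chain are known to oxidize iron faster, whereas light chain favours long-term storage. Fth1 counts per Ftl1 count were 0.667 and 0.628 in NC. For the vehicle libraries the ratio was 0.856, 1.08 and 1.11. Under DPI it took the values 0.532, 0.787, 0.853 and 1.05. The 3 vehicle libraries lay above both NC libraries, and DPI spanned both groups. On the log2 scale vehicle exceeded NC by 0.64 (two-sided exact permutation p = 0.1, the smallest that 2 against 3 libraries allow), DPI differed from vehicle by -0.37 (exact p = 0.143, smallest possible 0.0286) and DPI from NC by 0.27 (exact p = 0.467, smallest possible 0.0667). Adjusted over these 3 comparisons the exact p-values were 0.214, 0.214 and 0.467.

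**Figure D2:**
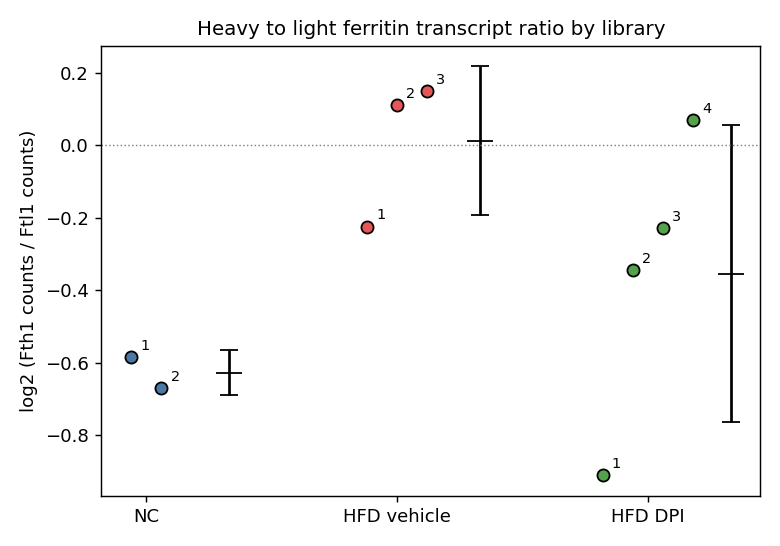
Log2 of the Fth1 to Ftl1 count ratio by library, with points numbered by replicate and bars giving the group mean and SD; the dotted line marks equal counts. NC lies at -0.63 on average, vehicle at 0.01 and DPI at -0.35, with DPI library 1 the lowest of all.

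Values of cell type markers were set beside ferritin. The sums of dendritic genes and of the KC list were higher in every HFD library than in both NC libraries, as Fth1 was, but by gene this held for 1 of 7 dendritic genes (Siglech) and none of 11 KC genes. Dendritic genes (5 to 7 of 7 over 0) summed to 55.1 and 108 CPM in NC, 193 to 310 CPM with vehicle and 122 to 408 CPM with DPI, mostly from Ccr7 and Cd209a, whereas Flt3 was at 21.8 and 24.1 CPM in NC and at 9.05 and 6.93 CPM in vehicle libraries 2 and 3. The KC list summed to 230 and 267 CPM in NC, 467 to 962 CPM with vehicle, highest in library 2 as Fth1 was, and 278 to 540 CPM with DPI, and Id3 made up most of it in every library. Summed over 11 erythroid genes, CPM were 738 to 4803 in NC, 174 to 2894 with vehicle and 207 to 736 with DPI, and vehicle library 2, the highest in Fth1, was also the highest vehicle library for these genes. B cell genes summed to 14.9 and 69.0 CPM in NC and to 93.3, 179 and 136 CPM with vehicle, without overlap, and to at most 404 CPM with DPI, highest in vehicle library 2 and DPI library 4 of their groups, as Fth1 was. Endothelial genes (7 of 7 in the table) summed to 209 and 299 CPM in NC and to 15.4 to 30.7 CPM with vehicle, without overlap, and to 10.7 to 226 CPM with DPI. By gene, 3 of 7 (Stab2, Clec4g and Dnase1l3) were lower in every HFD library than in both NC libraries, and 3 were neither. Pecam1 was higher in every HFD library (0.909 and 1.12 CPM in NC, 1.73 to 19.2 CPM in HFD libraries). Neutrophil genes summed to 990 and 2942 CPM in NC, 2334 to 3636 CPM with vehicle and 742 to 5180 CPM with DPI. Monocyte genes summed to 3936 and 3884 CPM in NC, 4079 to 4864 CPM with vehicle and 3492 to 7246 CPM with DPI. Among 13 hepatocyte genes, 4 (Alb, Ttr, Serpina1a and Hpx) were lower in every HFD library than in both NC libraries and 9 were neither. Alb was at 56.0 and 107 CPM in NC and at 5.43 to 31.5 CPM in HFD libraries. Among 10 T and NK cell genes, 2 were higher in every HFD library, none was lower and 8 were neither. The 2 were Cd3e (6.91 and 9.88 CPM in NC, at least 15.9 CPM in HFD libraries) and Cd3d (14.5 and 36.4 CPM, at least 38.9 CPM). T and NK cell genes summed to 88.2 and 289 CPM in NC, 169 to 332 CPM with vehicle and 204 to 413 CPM with DPI. The part of these cell types in the ferritin values was not tested.

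The exporter Slc40a1 was low in these libraries and did not pass the threshold in any comparison. Its values were 2.00 and 22.4 CPM in NC (11 and 120 counts), 21.1, 18.1 and 21.03 CPM with vehicle, and 7.83, 6.78, 9.63 and 17.2 CPM with DPI. All 4 DPI libraries lay below all 3 vehicle libraries, whereas the NC libraries stood at both ends of the range.
DPI was 1.92-fold lower than vehicle (log2 fold change -0.94 ± 0.65, adjusted p = 0.999; 95% interval -2.35 to 0.46). No member was called in this comparison (2.84% of all genes were, 1.5% higher and 1.34% lower) and 2 of 9 members did not overlap between groups, Slc40a1 lower (as 2.48% of all genes) and Ireb2 higher (as 3.38%). No tested gene passed the adjusted threshold here, and 4.13% had an unadjusted p under 0.05. Against NC, Slc40a1 depended on 1 library: with vehicle its log2 fold change was 0.72 ± 0.80 (adjusted p = 0.763), -0.15 without NC library 1 and 3.34 (adjusted p = 0.0446) without NC library 2. Leaving out an NC library leaves that group with 1 library, assumed to vary like the other groups. Without NC library 2, 4 members were called with vehicle against NC (Fth1, Ftl1, Slc40a1 and Tfrc) and 4 with DPI against NC (Fth1, Slc40a1, Tfrc and Blvrb), where 21.4% and 21.3% of all genes were. Ferroportin is also a marker of KCs. Clec4f was at 0 and 45.5 CPM in NC, 9.31, 0 and 0 CPM with vehicle and 13.4, 2.03, 0.741 and 0.611 CPM with DPI, so that both genes were highest in NC library 2 and lowest in NC library 1, while vehicle libraries 2 and 3 had no Clec4f and 18.1 and 21.03 CPM of Slc40a1. The part of KC content in the Slc40a1 values was not tested.

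Tfrc, the receptor that takes up transferrin-bound iron, had 0 and 6.34 CPM in NC, 4.43, 9.78 and 12.6 CPM with vehicle and 2.33, 9.16, 9.08 and 14.7 CPM with DPI. The 0 in NC library 1 stands for 0 of 4666522 counts, which allows up to 0.546 CPM. The groups overlapped, and none of the differences passed the test (log2 fold changes 1.49 ± 1.26 for vehicle and 1.47 ± 1.21 for DPI against NC, and -0.02 ± 0.99 between them). Against NC the values depended on its libraries. Without NC library 1 they were 0.50 and 0.47. Without NC library 2, which leaves only the library at 0, Tfrc was called in both (edgeR adjusted p = 0.0318 and 0.0315), at least 16.4-fold and 16.1-fold higher against the floor of 3 counts.

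Slc11a1 (Nramp1) moves iron and other divalent metals out of phagosomes, and C57BL/6 mice are known to carry a form that does not function. Its mRNA varied little, at 111 and 106 CPM in NC, 130, 147 and 117 CPM with vehicle and 114, 112, 125 and 134 CPM with DPI. Every HFD library lay above both NC libraries, but by little: the log2 fold change was 0.28 ± 0.28 (adjusted p = 0.732; 95% interval -0.33 to 0.89) with vehicle and 0.16 ± 0.27 (adjusted p = 0.876) with DPI, and with library totals alone as the scale both turned to -0.003 and -0.05. The count of members without overlap was 3 of 9 in each comparison with NC (Fth1, Ftl1 and Slc11a1), all higher, while 15% of all genes did so with vehicle and 11.7% with DPI.

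Slc11a2 (Dmt1), which carries iron out of endosomes after transferrin uptake, had 12.2 and 7.09 CPM in NC, 3.55, 13.4 and 14.1 CPM with vehicle, and 7.28, 16.6, 7.60 and 14.5 CPM with DPI. No group stood apart. The log2 fold changes were between 0.10 and 0.25 with SEs of 0.61 to 0.73, so that a 2-fold difference in either direction was not detectable at this spread (95% interval of the fold 0.442 to 2.76 for DPI against vehicle).

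Cd163, the receptor for haptoglobin-bound haemoglobin, was the least abundant member per length over the 9 libraries together, though not within NC, where Tfrc was lower. It had 2.18 and 4.85 CPM in NC (12 and 26 counts), 5.98, 1.99 and 1.98 CPM with vehicle (27, 11 and 8 counts) and 1.47, 1.02, 13.3 and 13.5 CPM with DPI (24, 3, 72 and 132 counts). The DPI libraries fell at both ends of the range, replicates 3 and 4 above all others and replicates 1 and 2 below. The mean of DPI was 2.21-fold that of vehicle, with a 95% interval of 0.484 to 10.1 (log2 fold change 1.14 ± 1.02, adjusted p = 0.999). With 1 library left out this log2 fold change ran from 0.67 (without DPI library 4) to 1.87 (without vehicle library 1), and with the replicate block it was -0.29. The sum of neutrophil genes followed the same division of the DPI libraries, at 742 and 786 CPM in replicates 1 and 2 and 3639 and 5180 CPM in replicates 3 and 4. Mpo, Elane and Camp did not follow it, being highest in replicate 3 and lowest in replicate 4. B cell genes divided likewise (at most 38.1 CPM summed in replicates 1 and 2 against 117 and 404 CPM). The sum of endothelial genes (226 and 112 against 10.7 and 41.0 CPM) and C1qb (322 and 467 against 82.4 and 79.3 CPM) divided the other way. Among the endothelial genes Pecam1 was an exception, highest in replicate 4 (19.2 CPM). The part of these cell types in the Cd163 values was not tested.

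Blvrb, a biliverdin reductase also known as flavin reductase, had 56.9 and 31.1 CPM in NC, 40.6, 45.3 and 35.1 CPM with vehicle, and 39.2, 21.4, 26.3 and 19.6 CPM with DPI. Of the 4 DPI libraries 3 were below every vehicle and NC library. The difference did not pass the test against vehicle (log2 fold change -0.59 ± 0.36, adjusted p = 0.999) or NC (-0.72 ± 0.40, adjusted p = 0.535). DPI library 1 was the exception among the DPI libraries, and without it the difference from vehicle was -0.85, still under the fold threshold.

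Ireb2 encodes IRP2, the iron regulatory protein that is degraded when iron is plentiful. It had 20.7 and 8.95 CPM in NC, 10.2, 7.61 and 12.1 CPM with vehicle, and 12.2, 14.2, 16.5 and 12.2 CPM with DPI. Each DPI library lay above each vehicle library, the closest by a small margin. The log2 fold change was 0.47 ± 0.49 (adjusted p = 0.999). The NC libraries lay far apart, and the sign against NC turned from -0.57 to 0.16 with vehicle and from -0.11 to 0.63 with DPI when NC library 1 was left out.

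**Figure D3:**
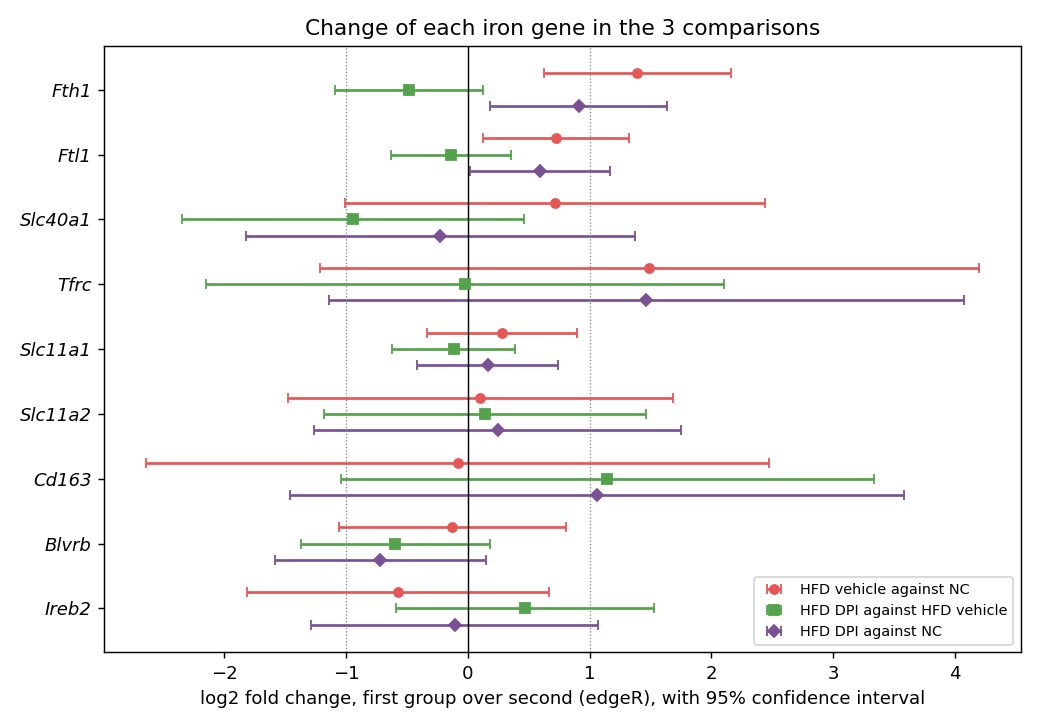
Log2 fold change of each member in the 3 comparisons, with bars giving the 95% interval from edgeR; dotted lines mark a 2-fold difference. Fth1 with vehicle against NC (1.39) is the only point called, and the intervals of Tfrc and Cd163 are the widest.

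Between members, levels were compared per kb of the first-listed transcript of GENCODE. Averaged over the 9 libraries, Ftl1 (7042 ± 1989 CPM per kb, SD) and Fth1 (6342 ± 2979) did not differ beyond their spread. Slc11a1 (52.5 ± 5.77) and Blvrb (34.1 ± 11.7) followed, with overlapping ranges of 45.7 to 63.4 and 19.0 to 55.4. Slc40a1 (4.16 ± 2.23), Slc11a2 (3.54 ± 1.46), Ireb2 (2.21 ± 0.69), Tfrc (1.55 ± 0.97) and Cd163 (1.17 ± 1.12) formed the lowest set, in which the ranges of neighbours overlapped. No library of any other member came near the ferritin range, whose lowest value was 2867 CPM per kb.
Over the members the median log2 fold change was 0.28 for vehicle against NC, -0.12 for DPI against vehicle and 0.25 for DPI against NC, beside 0.03, 0.04 and 0.04 over all tested genes. The members' medians were not stable. With 1 library left out they ran from 0.19 to 0.63 (highest without NC library 2), from -0.27 to 0.05 (above 0 only without vehicle library 2) and from 0.11 to 0.86 (highest without NC library 2). The medians over all genes rose as well, to 0.29 with vehicle and 0.35 with DPI against NC without NC library 2. Without vehicle library 2 the median over all genes was 0.07 for DPI against vehicle. With library size alone as the scale the members' medians were -0.003, -0.04 and -0.003, beside -0.26, 0.12 and -0.17 over all genes. With the replicate block they were 0.29, -0.29 and -0.09, beside 0.09, 0.03 and 0.08 over all genes. With DPI against NC no member was called, where 9.29% of all genes were (6.24% higher, 3.05% lower) and 0.00878% passed the adjusted threshold; 2 members, Fth1 and Ftl1, had an unadjusted p under 0.05, as had 10.7% of all genes. By Pearson correlation of log2 CPM over the 9 libraries, the genes most like Fth1 were Plin2 (0.96), Dusp4 (0.94) and Sqstm1 (0.94), and those most like Slc40a1 were Foxj3 (0.97), Emd (0.97) and Sdhaf1 (0.96); as the highest of 11393 genes these values are a description.

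Other genes of iron and heme handling were read from 6 lists of 60 genes, of which 59 were in the table and 46 were tested. With vehicle against NC 2 were called higher and 8 lower, with DPI against vehicle 1 higher and 2 lower, and with DPI against NC none higher and 2 lower. Of all genes tested, 7.03% and 4.63%, 1.5% and 1.34%, and 6.24% and 3.05% were called higher and lower in these comparisons. None passed the adjusted threshold in any comparison, and the median log2 fold changes were -0.30, 0.12 and -0.33. Without NC library 2 the median of these lists against NC was -0.26 with vehicle and -0.02 with DPI. The medians over all tested genes were then 0.29 and 0.35. With vehicle against NC, 3 higher and 4 lower were called without vehicle library 1, 1 and 5 without library 2, and 2 and 3 without library 3. Of all genes, 9.6%, 10.9% and 9.04% were called in either direction in these fits. Between DPI and vehicle the median fell to 0.01 without vehicle library 3 or DPI library 1 and was 0.32 without vehicle library 2, with 0 or 1 higher and 1 or 2 lower called. In the same fits 1.85%, 1.91% and 4.64% of all genes were called in either direction.

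Heme breakdown supplies the iron that ferritin stores. Of 9 tested genes of heme uptake and breakdown, 2 were called higher and 2 lower with vehicle against NC, where 7.03% and 4.63% of all genes were. Hmox1, heme oxygenase, which opens the heme ring, had 114 and 90.3 CPM in NC, 310, 175 and 231 CPM with vehicle and 76.3, 94.3, 148 and 75.8 CPM with DPI. The vehicle libraries lay above all others. It was 2.33-fold higher with vehicle than in NC (log2 fold change 1.22 ± 0.39, adjusted p = 0.253) and 2.42-fold lower with DPI than with vehicle (-1.27 ± 0.31, adjusted p = 0.999); with library totals alone as the scale the first was 0.93 and no longer called. Blvra, the biliverdin reductase that acts on the product of heme oxygenase, moved the other way with vehicle: 95.7 and 54.6 CPM in NC against 25.5, 41.8 and 25.2 CPM (log2 fold change -1.28 ± 0.38, adjusted p = 0.23), with 51.9, 41.0, 41.7 and 36.8 CPM with DPI. Without NC library 1 the difference was -0.81 and not called.
Abcg2, which can export heme, had 0 counts in both NC libraries and 0, 20 and 18 counts with vehicle, at least 4.87-fold higher against a floor of 3 counts per library, and was not called without any 1 of the NC libraries or vehicle library 2 or 3. Hpx, the plasma heme carrier hemopexin made by hepatocytes, had 10.2 and 46.8 CPM in NC, 1.33, 2.54 and 3.71 CPM with vehicle and 0, 3.05, 0 and 1.32 CPM with DPI, and was called lower in both comparisons with NC (log2 fold changes -3.49 ± 1.37 and -4.87 ± 1.32). The first call was lost without NC library 2 or vehicle library 1 or 2 (range -1.98 to -4.20) and the second without NC library 2 (-3.28). Hepatocyte genes, Hpx among them, summed to 1363 and 1683 CPM in NC, 884 to 1302 CPM with vehicle and 755 to 1774 CPM with DPI, a sum made up mostly of Hp and Trf. Of the 13 genes 4 (Alb, Ttr, Serpina1a and Hpx) were lower in every HFD library than in both NC libraries, none was higher and 9 overlapped. Alb (56.0 and 107 CPM in NC, 5.43 to 21.7 CPM with vehicle, 11.9 to 31.5 CPM with DPI) and Ttr (18.0 and 23.9 CPM in NC, 0 to 2.23 CPM with vehicle, 0 to 7.12 CPM with DPI) were among the 4, while Apoa1 (5.46 and 24.8 CPM in NC, up to 25.8 CPM in HFD libraries) was among the 9. The part of hepatocyte RNA in the Hpx values was not tested.

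Of 9 tested genes of iron sensing and regulation and 4 of ferritin turnover and iron chaperones, none was called with vehicle against NC (11.7% of all genes). In the first list 1 gene was called lower with DPI against vehicle, where 1.34% of all genes were. In the second list 1 gene was called lower with DPI against NC, where 3.05% of all genes were. Nfe2l2 (NRF2), a transcription factor known to act on ferritin and Hmox1, had 106 and 80.9 CPM in NC, 172, 226 and 152 CPM with vehicle, and 97.9, 92.6, 153 and 238 CPM with DPI. With vehicle against NC its log2 fold change was 0.97 ± 0.42 (adjusted p = 0.356), just under the fold threshold, and it was called without Rn45s and without NC library 1, vehicle library 1 or vehicle library 3. Spic, the factor that marks iron-recycling macrophages, was called lower with DPI than with vehicle: it had 33 counts in each library of NC (6.15 CPM in NC library 2), 11.5, 9.78 and 8.17 CPM with vehicle, and 0.184, 3.73, 1.30 and 3.26 CPM with DPI. The difference was -2.25 ± 0.88 on the log2 scale (adjusted p = 0.999), and it missed the threshold without vehicle library 1 (-2.12), vehicle library 2 (-2.24) or DPI library 3 (-2.08).
Ncoa4, the receptor that carries ferritin to the lysosome, had 41.1 and 37.1 CPM in NC, 29.7, 30.8 and 33.9 CPM with vehicle and 26.8, 18.7, 11.9 and 20.3 CPM with DPI. The 3 groups did not overlap, in descending order. With DPI against NC it was called lower (log2 fold change -1.01 ± 0.40, adjusted p = 0.412), at the edge of the threshold. The call was lost without NC library 1 or 2 or DPI library 2 or 3 (range -0.83 to -1.21). With every library kept it was also lost without a filter, with at least 10 counts in every library, in the fit of 2 groups, with the replicate block and without Rn45s (-0.96 to -0.995). Pcbp1, an iron chaperone that delivers to ferritin, differed by -0.70 ± 0.31 between DPI and vehicle (adjusted p = 0.999), under the fold threshold.

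Uptake and export partners were mostly low. Of 10 uptake and reduction genes 6 were tested. Lcn2, the siderophore-binding lipocalin of neutrophils and activated macrophages, was the only call, beside 4.63% of all genes called lower with vehicle against NC. It was lower with vehicle than in NC (77.4, 136 and 138 CPM against 192 and 305 CPM; log2 fold change -1.08 ± 0.48, adjusted p = 0.363), and the call was lost without NC library 2 or any of the 3 vehicle libraries (range -0.68 to -1.37 with 1 library left out). Of 7 export partners only Cp, the ferroxidase ceruloplasmin, was tested, and it did not pass (log2 fold change -2.05 ± 1.46 for DPI against vehicle, adjusted p = 0.999). Vehicle library 1 set this direction, with 11.5 CPM against 0.362 and 0.247 CPM in the other vehicle libraries, and without it the value was 1.59. Hamp, the gene of hepcidin, which degrades ferroportin, had at most 4 counts in any library.

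Genes of mitochondrial iron use had mostly negative log2 fold changes with vehicle against NC. Of 17 tested genes of iron-sulfur cluster and heme synthesis, 5 were called lower and none higher with vehicle against NC, and 8 did not overlap and were lower, against 4.63% and 12.5% of all genes. The list had a median log2 fold change of -0.82, and 15 of its 17 genes were negative. Urod, an enzyme of the heme pathway, had 58.0 and 17.5 CPM in NC, 8.64, 6.34 and 11.9 CPM with vehicle and 18.2, 16.96, 21.9 and 17.4 CPM with DPI. The vehicle libraries were below all the others. Urod was 4.22-fold lower with vehicle than in NC (log2 fold change -2.08 ± 0.56, adjusted p = 0.175) and 2.08-fold higher with DPI than with vehicle (1.06 ± 0.48, adjusted p = 0.999).
Glrx5, which serves iron-sulfur cluster assembly, had 11.8 and 17.3 CPM in NC, 3.10, 5.43 and 1.73 CPM with vehicle and 8.14, 7.46, 13.2 and 6.62 CPM with DPI, lower with vehicle than in NC (-2.08 ± 0.72, adjusted p = 0.287). Cpox (-2.10 ± 0.83) and Abcb10 (-2.83 ± 1.19) were also called lower, from means of 10.8 and 11.6 CPM in NC. With DPI against vehicle 15 of the 17 genes were positive, with a median of 0.32, and Urod was the only call. DESeq2 and the likelihood ratio test called Glrx5 as well, and thinned counts called Glrx5 in place of Urod. With 1 library left out the median ran from 0.15 (without vehicle library 3) to 0.59 (without vehicle library 2), and 12 to 15 genes were positive. The comparisons share the vehicle libraries, so that a low vehicle value enters both. The calls depended on the processing and on single libraries. With every library kept, 5 were lower with vehicle against NC under RLE factors, library size alone, DESeq2 and the likelihood ratio test. Without a filter and in the fit of 2 groups 4 were lower. With at least 10 counts in every library 3 of 10 tested were lower, and with the replicate block 2 (Glrx5 and Urod). Without NC library 1, 3 genes were called lower and 1 higher, with Glrx5 the only one of the 5 among them; without NC library 2, 4 were lower and 3 higher; and without vehicle library 1, 2 or 3, 3, 3 and 1 were lower. Leaving out 1 library in turn gave -0.97 to -2.67 for Urod against NC, which lost its call without NC library 1, and 0.86 to 1.30 for DPI against vehicle, where it kept its call only without vehicle library 3. The ranges were -1.71 to -2.58 for Glrx5 (call lost without NC library 2 or vehicle library 3), -1.86 to -2.27 for Cpox (without NC library 1 or vehicle library 2 or 3) and -2.25 to -3.45 for Abcb10 (without NC library 1 or vehicle library 1 or 3). These genes are also active in erythroid cells, whose summed CPM were 4803 in NC library 1 and 738 in NC library 2, and the part of such cells was not tested.

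**Figure D4:**
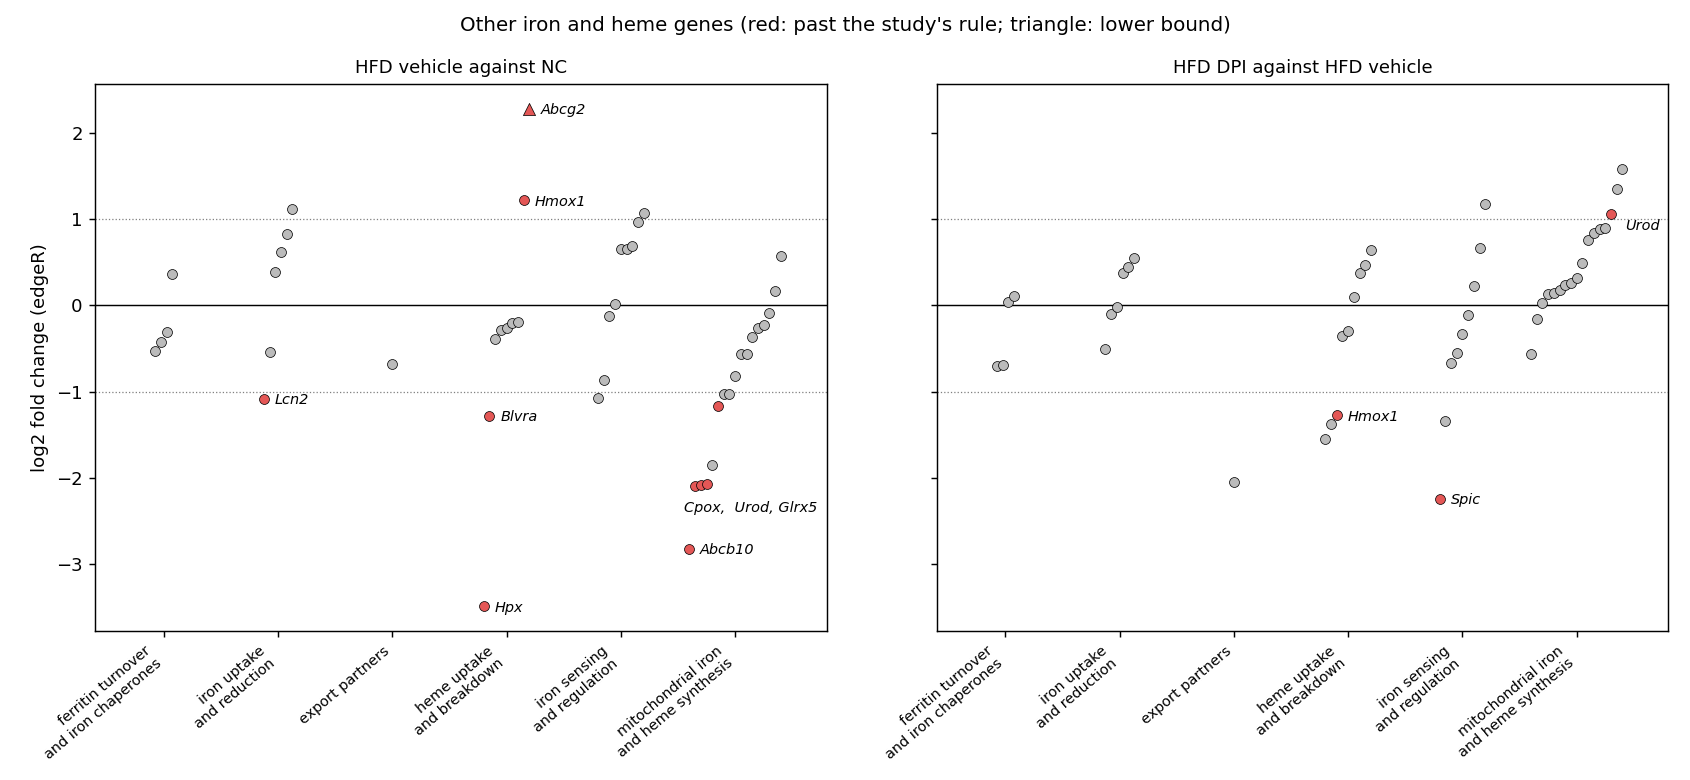
Log2 fold changes of the tested genes of the 6 further lists, 1 point per gene, for vehicle against NC (left) and DPI against vehicle (right); red points pass the threshold of the study, dotted lines mark a 2-fold difference, and the triangle is the lower bound of Abcg2, whose NC libraries had 0 counts. Of the mitochondrial iron and heme synthesis genes 5 lie past the threshold on the lower side at left, and Urod alone lies past it on the upper side at right.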

How the data were processed

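RNA-seq was analysed for 9 libraries of sorted liver macrophages (NC 2, HFD vehicle 3, HFD DPI 4), grouped by the sample labels. The authors deposited raw read counts per gene without normalization. The study's methods name bowtie2 and RSEM on mm10, whereas the submitters' processing notes name TopHat2 and edgeR. Every column of the table belongs to a mapped library.

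Counts were filtered with filterByExpr, scaled by TMM factors and fitted with glmQLFit in edgeR 4.0.16 (R 4.3.3) over all 3 groups, with glmQLFTest and Benjamini-Hochberg adjustment over 11393 genes. A call is the study's threshold, an unadjusted p under 0.05 with a fold change of at least 2. Depth was 3534325 to 15585775 counts per library, and floors cover counting error only. The Fth1 to Ftl1 ratio was tested by two-sided exact permutation. Alternatives were RLE factors, library size alone, no filter, at least 10 counts in every library, DESeq2 1.42.0, the likelihood ratio test, fits of 2 groups, the replicate number as a block, no Rn45s, counts thinned to the smallest depth, and leaving out each library. The same alternatives were applied to the further iron lists after their values were seen. Positions and sequences came from GENCODE M21, read with Python 3.11.15 and numpy 2.4.6, and figures were drawn with matplotlib 3.10.9.

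Members, lists and tests were chosen with earlier results of these data known. All members were named, and from each further list the genes called or the 2 with the smallest p in a comparison were eligible; correlates are the 3 highest for Fth1 and Slc40a1. One gene eligible by this rule and 1 marker gene are not reported here by name. On simulated counts with 200 genes changed 2-fold (log2 fold change 1), the threshold recovered 36% with vehicle against NC, 36.5% with DPI against vehicle and 38.5% with DPI against NC; at a log2 fold change of 2 it recovered 87.5%, 95% and 91.5%. In the same simulations 485, 376 and 418 unchanged genes were called beside the 72, 73 and 77 recovered at 2-fold, and no unchanged gene passed the adjusted threshold there. The changed genes were drawn only from genes above a set mean CPM, which Tfrc and Cd163 did not reach. Recovery at the level of these 2 members was therefore not measured.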

Additional observations from a re-analysis of the deposited data

Results flagged for a closer look

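Ftl1 in DPI library 2 had 6494 CPM, set apart from the other 3 DPI libraries at 7282 to 7392 CPM. Its gap to the nearest of them was 0.877 of the range of the group, past Dixon's 95% critical value for 4 samples. All 9 members and the Fth1 to Ftl1 ratio were examined in this way in the DPI group, 10 in all, and chance gives about 1 such value in 20 groups. DPI library 2 was also the least deeply sequenced (3534325 counts), with 19148 Ftl1 counts, and the part of depth was not tested. Without it the log2 fold change of Ftl1 was -0.10 against vehicle and 0.67 against NC, on the same side of the threshold as with it.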

How the results depend on the processing

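The calls of the members depended on single libraries and not on the scaling, filter or tool tried. The number called with vehicle against NC was 1 under all 10 alternatives that kept every library, and 0 to 4 with 1 library left out (4 without NC library 2, 0 without vehicle library 2). With DPI against NC it was 0 under the same 10 and 0 to 4 with 1 library left out (4 without NC library 2, 1 without DPI library 1), and with DPI against vehicle it was 0 throughout. DESeq2 gave 1 member, Fth1 with vehicle against NC, past the adjusted threshold. With library size alone the sign turned for Slc11a1 (-0.00326) and Slc11a2 (-0.23) with vehicle against NC, for Tfrc (0.087) with DPI against vehicle, and for Slc11a1 (-0.0473) and Slc11a2 (-0.00284) with DPI against NC. Under this scaling all tested genes had medians of -0.26, 0.12 and -0.17 in the 3 comparisons (log2, from 0.03, 0.04 and 0.04), and the calls were 539 higher and 932 lower, 196 and 101, and 546 and 624, from 801 and 528, 171 and 153, and 711 and 347 with TMM factors. Thinning to the smallest depth turned Slc11a2 (-0.0653) and Cd163 (0.10) with vehicle against NC. With 1 library left out, values with a sign change ranged with vehicle against NC from -0.15 to 3.34 for Slc40a1, -0.20 to 0.56 for Slc11a2, -0.77 to 0.62 for Cd163, -0.47 to 0.38 for Blvrb and -1.03 to 0.16 for Ireb2; with DPI against vehicle from -0.31 to 0.20 for Ftl1, -0.40 to 0.30 for Tfrc and -0.27 to 0.41 for Slc11a2; and with DPI against NC from -1.09 to 2.40 for Slc40a1, -0.066 to 0.69 for Slc11a2 and -0.56 to 0.63 for Ireb2. Without a sign change, Cd163 ran from 0.59 to 1.77 and Blvrb from -1.06 to -0.21 with DPI against NC. The cause was not tested.

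Same-numbered libraries of different groups did not deviate together (correlations -0.02 to 0.08), so the numbers were not taken to pair them. With the replicate block Fth1 stayed the 1 member called with vehicle against NC, 897, 401 and 818 genes were called in the 3 comparisons against 1329, 324 and 1058, and the sign turned for Slc11a2 (-0.23) and Blvrb (0.0253) with vehicle against NC, Cd163 (-0.29) with DPI against vehicle, and Slc11a2 (-0.15) and Cd163 (-0.79) with DPI against NC. Under the block the calls of Hpx (-2.92), Cpox (-2.24) and Abcb10 (-2.34) with vehicle against NC, Urod (1.13) with DPI against vehicle and Ncoa4 (-0.96) with DPI against NC were lost. The direction of the Fth1 to Ftl1 ratio held on the linear scale (differences of 0.367, -0.209 and 0.157 in the 3 comparisons) and, on the log2 scale, with each library left out (0.57 to 0.76, -0.51 to -0.18 and 0.13 to 0.46). Requiring 10 counts in every library left 726, 202 and 527 calls, no filter 1639, 602 and 1377, and NC library 2 left out gave 2634 with vehicle and 2626 with DPI against NC. Genes passing the adjusted threshold with vehicle against NC numbered 7, against 52 without a filter, 319 by DESeq2, 280 by the likelihood ratio test and 568 without NC library 2. Among the 9 members the widest 95% intervals of the fold for vehicle against NC were those of Tfrc (0.431 to 18.4) and Cd163 (0.16 to 5.57).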
